A study of Mus musculus with 3 samples.

Results

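Hlf-positive cells are the cells of a neonatal liver progenitor sort whose RNA carried Hlf, a transcription factor gene of blood stem cells, together with other stem-cell genes. A cell was kept if it had at least 1000 gene UMIs (unique molecular identifiers, each counting 1 captured RNA molecule), at least 500 genes and under 10% mitochondrial UMIs. A member then needed at least 1 UMI of Hlf and a UMI of at least 2 of the 7 genes Procr, Mllt3, Adgrl4, Pdzk1ip1, Fgd5, Esam and Ly6a. In addition, the erythroid genes Klf1, Ermap, Rhd, Rhag and Car1 had to sum to under 3 per 10000 gene UMIs. The members were thus chosen by the UMIs of 13 genes and by depth, and these values are not results. In all, 2240 of 26887 passing cells met this rule.

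The study used CITE-seq, which reads RNA and surface antibody tags (here 10) from the same cell, on liver cells of mice on postnatal day 0 that were sorted for KIT and against lineage markers. The 3 groups were Control mice, mice with the leukemia fusion MLL-ENL, and mice that had this fusion but lacked Skida1, called Skida1-deleted here. Each group had 1 library. The driver of the fusion, the alleles the controls carry, the deleted stretch of Skida1 and the number of animals pooled are not stated in the labels.

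Blood stem cells sit at the top of the blood hierarchy, divide rarely in adults and more often around birth, and give rise to all blood lineages. In mice they are classically sorted as lineage-negative, KIT-positive, Sca-1-positive cells with CD150 and without CD48, while CD48-positive cells of the same gate are multipotent or more restricted progenitors. The liver holds most of these cells at birth, before they settle in the bone marrow. MLL-ENL joins the chromatin regulator MLL (mouse gene Kmt2a) to ENL (Mllt1), and such fusions are known for raising HoxA genes and Meis1 in progenitors. Skida1 encodes a protein linked to the Polycomb repressive complex.

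Because each group is 1 library, group differences were not tested and carry no p-value. Values in brackets are 95% intervals, which cover counting error only, not differences between animals or preparations. Levels are CPM, the UMIs of a gene summed over the member cells of a library per 1000000 gene UMIs of those cells. Where values are given without naming the library, they are in the order Control, MLL-ENL and Skida1-deleted.

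The members numbered 718 of 5777 passing cells for Control, 686 of 11148 for MLL-ENL and 836 of 9962 for Skida1-deleted. They were 12.4% [11.6–13.3], 6.15% [5.71–6.62] and 8.39% [7.85–8.95] of the passing cells. The share was highest in Control and lowest in MLL-ENL, with intervals that did not overlap. Members' median depth was 14666 UMIs for Control, 8532 for MLL-ENL and 8090.5 for Skida1-deleted, so that a marker was easier to detect in a Control cell. After thinning each cell to 4000 UMIs before the rule was applied, the shares were 5.06% [4.50–5.66], 3.10% [2.76–3.46] and 3.82% [3.44–4.23] in the same order of libraries. Control was still apart, but the intervals of MLL-ENL and Skida1-deleted then overlapped.

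The shares also turn on how many erythroid cells each sort held. Among cells under the erythroid limit, members were 35.4% [33.3–37.5] for Control, 19.9% [18.6–21.3] for MLL-ENL and 18.9% [17.8–20.1] for Skida1-deleted. At 4000 UMIs these were 13.4% [11.9–14.9], 7.68% [6.85–8.57] and 7.20% [6.49–7.95]. On this base Control was the highest, and the intervals of the MLL-ENL and Skida1-deleted libraries overlapped.

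**Figure D1:**
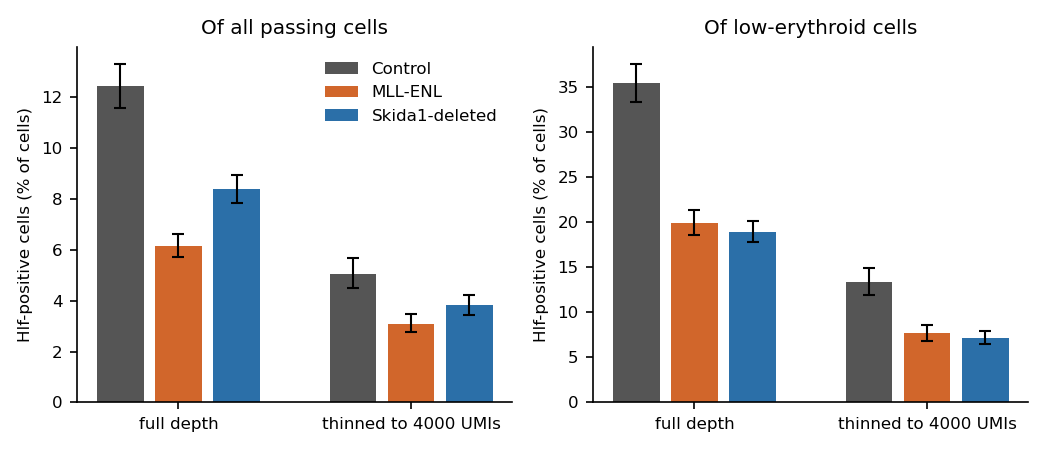
Share of Hlf-positive cells in each library, as a percentage of all passing cells (left) and of cells under the erythroid limit (right), at full depth and after thinning to 4000 UMIs. Bars are shares and lines are exact binomial 95% intervals; Control is highest in all 4 settings, with 12.4% of passing cells at full depth and 5.06% after thinning.

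The 3 libraries differed in ways that touch these cells. Gene UMIs summed over members were 11980502, 7390546 and 8317653. Of the members, 3, 18 and 35 were among the cells with the highest doublet scores, and no member barcode was shared between libraries, though 16 to 23 passing barcodes were. Xist, transcribed from the inactive X chromosome, had 989, 1896 and 5.77 CPM and Ddx3y of the Y chromosome had 0, 0 and 81.5 CPM, so the Skida1-deleted library differed from both others in sex-linked transcripts. The part of sex in the results was not tested beyond leaving out X and Y genes, as given below.

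The genes of the rule are given as a description, since they chose the cells. Hlf, on chromosome 11 from 90336535 to 90390917 of GRCm38.p6, had 265, 365 and 368 CPM in members. The adhesion receptor gene Adgrl4 was the most abundant of the other markers, with 439, 268 and 271 CPM, and the Sca-1 gene Ly6a had 74.9, 71.98 and 62.9 CPM. Procr, which encodes the CD201 protein, had 23.7, 26.2 and 19.7 CPM. Mllt3, the mouse AF9 gene of the same elongation complex as ENL, had 67.03, 77.5 and 73.7 CPM and Pdzk1ip1 had 33.5, 31.1 and 27.8 CPM. Fgd5, a gene used to mark stem cells, had 25.2, 13.9 and 14.1 CPM and the adhesion gene Esam had 25.5, 9.74 and 7.21 CPM. Adgrl4, Fgd5 and Esam were highest in Control, Hlf was lowest there, and the other markers lay closer together.

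Members did not carry the same number of markers in the 3 libraries. Exactly 2 of the 7 markers were found in 275, 425 and 571 members, and 3 markers in 162, 154 and 199. Members with 4 markers numbered 138, 84 and 54, and those with 5 or more numbered 143, 23 and 12. At full depth, Control thus held most of the members with many markers, and its members had a greater median depth than those of the other libraries. Within each library, however, median depth was lower at 4 or more markers than at 2. It was 12102, 7323 and 6036 UMIs against 17374, 10237 and 8775. After thinning, members with 4 or more markers numbered 52, 35 and 26. Of all members, 155, 145 and 183 had only 1 UMI of Hlf.

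The tag counts did not enter the rule, but the RNA of Ly6a and Procr did, which encode Sca-1 and CD201, so the levels of these 2 tags are a description that the rule partly fixes. Sca-1 had a median of 508, 396.5 and 304.5 tag UMIs in members against 47, 24 and 19 in all other passing cells. On the centred log ratio, which sets each tag against the mean of all 10 tags within a cell on a natural log scale, the medians differed by 1.81, 2.24 and 2.30. Of the members, 84.4%, 85.3% and 86.6% fell in the top 25% of their library for this tag. The Sca-1 tag was thus higher in members in all 3 libraries, and Ly6a RNA is 1 of the 7 markers that chose them.

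The tags that separate stem cells from other Sca-1-positive progenitors did not follow the label "stem-like". CD48, which adult stem cells lack, had a median of 2394.5, 1526 and 1653 UMIs in members and 1502, 928 and 1437 in other cells. Its centred log ratio differed between members and other cells by −0.01, 0.07 and −0.20. CD150 had medians of 15, 11 and 10 UMIs in members and 14, 13 and 13 in other cells, with differences of −0.61, −0.74 and −0.71. Against other cells under the erythroid limit the CD150 differences were 0.20, −0.19 and −0.14, so that the sign turned in Control. In members with at least 3 markers the CD48 differences were −0.24, −0.72 and −0.54, and after thinning they were −0.48, −0.72 and −0.47. By the rule as stated, members were thus Sca-1-high cells with CD48 near the level of the rest of the sort, and they are called Hlf-positive cells here.

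A minority of members lay toward the stem-cell gate by their tags. Cells in the top 25% for Sca-1 and the bottom 25% for CD48 were 28.3%, 23.6% and 35.3% of members. Conversely, members were 50.5%, 15.7% and 40.7% of all cells in that tag gate. Adding the top 25% for CD150 left 89, 43 and 40 members, or 12.4%, 6.27% and 4.78%. Cells with all of these tags made up the largest share of members in Control.

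CD34, present on most progenitors and on neonatal stem cells, had a median of 112, 22.5 and 26 tag UMIs in members and 14, 10 and 10 in other cells. It was far higher in Control members than in those of the other libraries, and other cells under the erythroid limit followed the same order with 80.5, 20 and 23. The Cd34 RNA of members had 292, 228 and 199 CPM, a smaller span. CD201 tags were few, with medians of 11, 6 and 5 UMIs in members and 5, 4 and 3 in other cells. On the centred log ratio CD41, CD16/32 and CD117 were lower in members than in other cells in each library. Raw medians went the other way for CD41, with 6, 7 and 8 UMIs in members and 5, 5 and 6 in other cells, and for CD16/32, with 36, 26 and 19 and 29, 21 and 17. For CD117 they were 339.5, 325.5 and 329.5 and 539, 354 and 447. The differences of the centred log ratio ranged from −0.51 to −0.16 for CD41 and from −0.99 to −0.26 for CD117, and were −0.32 in each library for CD16/32.

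Within members, tag and RNA moved together for several proteins, split at each library's median tag level over its members. Procr had 43.9, 53.4 and 38.2 CPM in members above the CD201 median and 9.97, 10.3 and 8.05 CPM in those below. Ly6a had 137, 147 and 125 CPM above the Sca-1 median and 30.6, 25.9 and 22.6 CPM below. Slamf1, the gene of CD150, had 90 of 92 UMIs above the CD150 median for Control, 24 of 29 for MLL-ENL and 35 of 42 for Skida1-deleted. Kit RNA differed less between members above and below the CD117 median, with 169, 219 and 281 CPM above and 169, 194 and 259 CPM below.

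**Figure D2:**
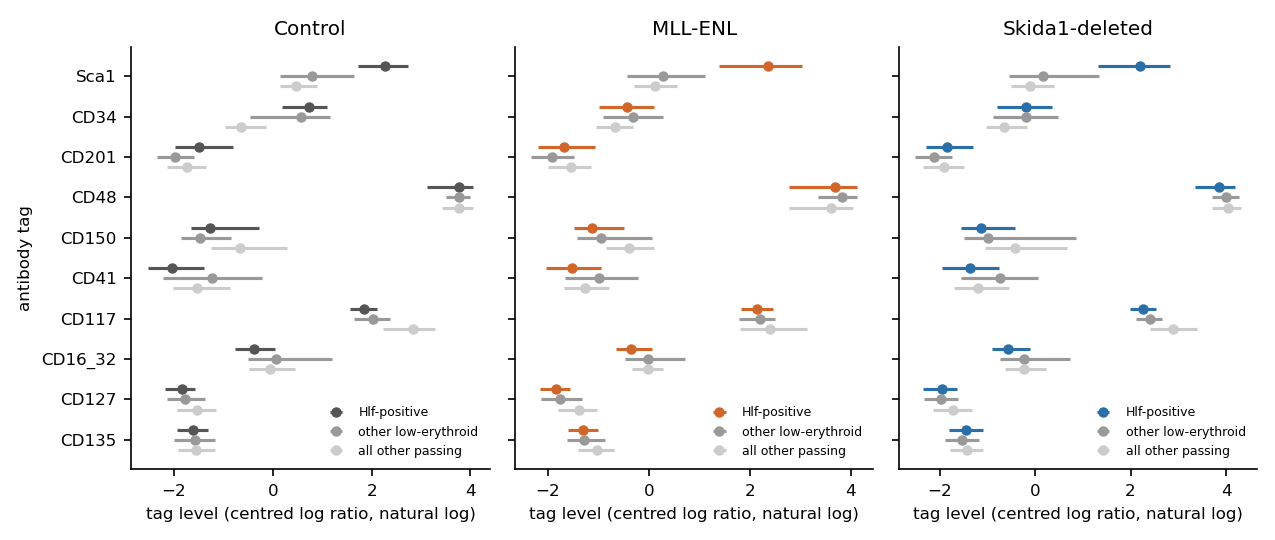
Levels of the 10 antibody tags as centred log ratio (natural log) in Hlf-positive cells, other cells under the erythroid limit and all other passing cells of each library. Points are medians and lines span the 25th to 75th percentile of cells; Sca-1 stands 1.81 to 2.30 above the other cells, while CD48 differs by −0.20 to 0.07.

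Beyond the rule, the genes that set members apart from other passing cells included stem-cell and immune genes. The comparison is a description, since the rule chose the cells on linked genes. Of 5864 genes, 21.2% were at least 1.5-fold higher in members in all 3 libraries and 10.5% at least 1.5-fold lower. Nkx2-3, a homeobox gene, had 37.7, 36.5 and 36.5 CPM in members against 1.18, 1.25 and 1.82 in other cells. Mecom, the EVI1 transcription factor gene required by stem cells, had 58.5, 197 and 239.7 CPM against 1.52, 12.3 and 23.1. Ltb, which encodes lymphotoxin beta, had 151, 106 and 76.3 CPM against 6.54, 5.92 and 5.71. Others among the 15 genes with the highest lowest ratio were Hacd4, Pglyrp2, Ccl4, Gimap5, Stat4, Cnrip1, Neurl3, Ifi203, Gem, Ebi3 and Gimap6. All 15 were also higher in members than in other cells under the erythroid limit, where 4.21% of 5583 genes were at least 1.5-fold higher in all 3 libraries and 0.824% lower.

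Other stem-cell genes outside the rule were present in all 3 libraries. Gata2 had 64.9, 83.3 and 94.98 CPM and Angpt1 had 171, 182 and 216 CPM. After thinning, Gata2 was found in 21.6%, 29.9% and 31.2% of members. In other cells under the erythroid limit it was found in 21.4%, 23.6% and 25.2%. By this share, Gata2 did not set members apart from those cells in Control. Some genes known from the most quiescent adult stem cells were low. Slamf1 had 7.68, 3.92 and 5.05 CPM, Tek 6.93, 3.65 and 5.53, Vwf 6.59, 18.8 and 15.6 and Tcf15 4.34, 1.89 and 0.962. Each of these 4 genes stayed under 20 CPM in all 3 libraries. They are not typical of their list of 30 stem-cell genes outside the rule. Of that list 22 genes, Cdkn1c among them, reached 20 CPM in Control or MLL-ENL.

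Lineage genes were present as well. The 20 granulocyte-monocyte genes summed to 4090.3, 2620.4 and 2254 CPM in members, and to 10339.9, 5454 and 5125 in other cells under the erythroid limit. Mpo, the myeloperoxidase gene, was found in 50.3%, 41.5% and 43.8% of members at 4000 UMIs, against 2.11%, 2.63% and 1.22% of cells rich in erythroid genes, whose median depth before thinning was 37895.5, 29217 and 26572 UMIs. Flt3, the receptor gene of lymphoid-primed progenitors, was found in 37.3%, 25.2% and 23.001% of members and 0.301%, 0% and 0% of cells rich in erythroid genes. Megakaryocyte genes summed to 338, 675 and 584 CPM and 14 B-lineage genes to 77.96, 76.6 and 65.3 CPM.

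Markers of non-blood cells were scarce. The 8 hepatocyte genes summed to 47.7, 52.1 and 53.3 CPM, of which Trf alone gave 38.5, 39.2 and 37.3, and albumin (Alb) had 0.918, 0.541 and 1.80 CPM. Macrophage genes summed to 6.93, 4.19 and 1.92 CPM, and of 7 stromal genes 4, 4 and 5 had no UMI. The endothelial genes Cdh5 and Kdr had 1.34, 0.135 and 0.12 and 1.002, 1.35 and 0.962 CPM, while Egfl7, Pecam1, Eng and Emcn, which stem cells also express, gave most of the endothelial list.

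At full depth, Mecom was higher with each further marker in all 3 libraries. The steps below run over cells with Hlf, a low erythroid sum and 0, 1, 2, 3 or 4 and more markers, of which the first 2 kinds are not members. Since these markers are part of the rule, the steps are a description. In Control, Mecom had 0, 7.56, 12.3, 44.1 and 128 CPM over these steps. In MLL-ENL it had 63.6, 84.9, 142, 301 and 338 CPM, and in the Skida1-deleted library 85.6, 126, 201, 304 and 460.2 CPM. Mecom in Control cells with 4 and more markers, at 128 [118–140] CPM, was near that in MLL-ENL cells with 2 markers, at 142 [131–152] CPM. The number of markers depends on depth, and in cells thinned to 4000 UMIs Mecom was lower at 4 and more markers than at 3 in Control, with 163 against 203 CPM, and in MLL-ENL, with 393 against 446 CPM. In the Skida1-deleted library it was 663 against 537 CPM.

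Mpo was lower in members with 3 or more markers than in cells with 2 or fewer. It had 2325, 1704, 1131, 568 and 396 CPM for Control, 1105, 1123, 686, 209.9 and 265 CPM for MLL-ENL and 1186, 1036, 579.9, 333 and 196 CPM for Skida1-deleted. Meg3, an imprinted long noncoding RNA gene active in fetal stem cells, had 0, 0.995, 2.46, 7.92 and 59.1 CPM in Control and 6.75, 8.80, 29.6, 219.96 and 358 CPM in MLL-ENL. In the Skida1-deleted library Meg3 had 8.32, 8.54, 36.5, 134 and 548 CPM. Meg3 was thus concentrated in members with 3 or more markers in all 3 libraries.

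The limit of 2 markers thus lay inside a graded series of cells. Cells just inside it, with 2 markers, had median Sca-1 tags of 330, 309 and 252 UMIs, and cells just outside, with 1 marker, had 159, 115 and 105.5. Cells with at least 2 markers and no Hlf UMI had 150, 54 and 40 Sca-1 tag UMIs and 5.23, 53.6 and 79.0 CPM of Mecom. Cells with an erythroid sum of 3 to 6 per 10000 were few, at 14, 44 and 68, with median depths of 47033.5, 33727 and 33738 UMIs.

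**Figure D3:**
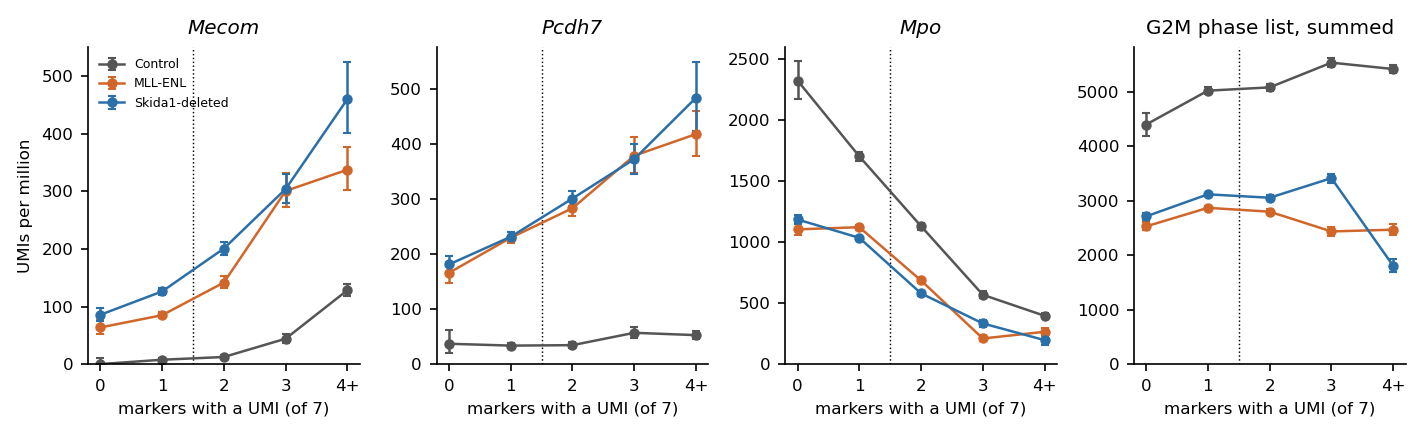
CPM of Mecom, Pcdh7 and Mpo and the summed CPM of 37 G2M genes in cells with Hlf and a low erythroid sum, by the number of the 7 markers with a UMI, for the 3 libraries at full depth. Points are levels with 95% Poisson intervals and the dotted line is the limit of 2 markers. The level of Mecom is higher at each step, with overlapping intervals at some steps in Control and MLL-ENL. Mpo is lower at 3 and at 4 or more markers than at 2, and Pcdh7 lies between 33.6 and 56.9 CPM in Control.

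Within members, Mecom and Mpo marked partly different cells. At 4000 UMIs, Mecom was found in 18.6% [15.8–21.7], 52.2% [48.4–56.01] and 60.02% [56.6–63.4] of members. Its share in cells rich in erythroid genes was 0.301%, 0% and 0%. With 332, 190 and 82 such cells, a share of 0% allows up to 0.904%, 1.58% and 3.66%. Members with a Mecom UMI had Mpo in 24.1%, 31.2% and 34.4% of cells, and members without had it in 56.3%, 52.8% and 57.8%. The Mecom-positive members also had fewer cell cycle UMIs, with medians of 11, 8 and 9 over the S and G2M lists against 33, 16 and 22.

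MLL-ENL was compared with Control first, the question being how cells with the fusion differ from those without. The fusion, the animals and the preparation cannot be told apart here. A gene was counted where it had at least 20 CPM in either library and 30 UMIs over both, and called at 1.5-fold. Of 6531 genes outside the rule, 580 were higher in MLL-ENL (8.88%) and 892 were lower (13.7%). With median-of-ratios scaling, which moved the median log2 ratio from −0.09 to −0.04, the counts were 686 higher and 714 lower. In other cells under the erythroid limit, 6.31% of 6105 genes were higher and 13.7% lower.

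Skida1, on chromosome 2 from 18044087 to 18048449, checks the deletion. It had 1.34 [0.763–2.17], 18.3 [15.3–21.6] and 1.56 [0.832–2.67] CPM, and at 4000 UMIs it was found in 0.42% [0.0867–1.22], 7.33% [5.49–9.55] and 0.984% [0.426–1.93] of members. In cells rich in erythroid genes these shares were 0%, 1.05% and 0%. The gene was higher in MLL-ENL than in Control, and near the Control level in the Skida1-deleted library. Kmt2a had 127, 161 and 166 CPM and Mllt1 had 11.9, 12.99 and 12.3 CPM. Whether the fusion transcript adds to either count was not tested.

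The HoxA genes were higher in MLL-ENL members. Of 5 measured genes of the cluster, 4 were called higher and 0 lower, beside 8.88% and 13.7% of all genes. Their median log2 ratio was 1.18 against −0.09 over all genes. Hoxa5, on chromosome 6 from 52201754 to 52204587, had 13.1 [11.1–15.3], 55.5 [50.2–61.1] and 38.4 [34.3–42.8] CPM and was 4.23-fold higher [3.51–5.12] in MLL-ENL than in Control. Hoxa3 had 7.93, 27.2 and 19.4 CPM and was 3.43-fold higher [2.67–4.43], Hoxa10 had 15.6, 36.5 and 31.7 CPM and was 2.34-fold higher [1.94–2.84]. Hoxa9, the best known HoxA gene of these leukemias, had 117, 192 and 157 CPM and was 1.63-fold higher [1.52–1.76]. Hoxa7 had 80.96, 120.4 and 115 CPM and a log2 ratio of 0.57, short of the 1.5-fold limit.

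Of 22 measured genes listed as targets of MLL fusions, which include the HoxA genes, 9 were called higher and 0 lower (median log2 ratio 0.34). The shares over all genes were 8.88% higher and 13.7% lower. Mecom had 58.5 [54.3–63.01], 197 [187–207] and 239.7 [229–250.5] CPM and was 3.37-fold higher [3.07–3.69] in MLL-ENL. Its log2 ratio of 1.73 was 1.37 after thinning and 3.42 in members with exactly 2 markers, so its size depends on depth and on the mix of marker numbers. Mef2c, a transcription factor gene of lymphoid and leukemic progenitors, had 304, 649 and 805 CPM and was 2.13-fold higher [2.04–2.23]. Meis1, the HoxA cofactor, had 133, 202 and 194 CPM (log2 ratio 0.60). Runx2 had 54.7, 98.8 and 107 CPM and was 1.81-fold higher [1.62–2.01], while Flt3 had 122, 81.6 and 68.8 CPM (log2 ratio −0.58) and Cdk6 had 188, 217 and 246 (log2 ratio 0.21). The 9 called genes were Hoxa5, Hoxa9, Hoxa10, Mecom, Mef2c, Meis1, Runx2, Jmjd1c and Arid2.

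Genes with the highest ratios were of several kinds. Pcdh7, a protocadherin adhesion gene on chromosome 5 from 57716145 to 58133236, had 45.6 [41.8–49.6], 319 [306–332] and 329 [316–341] CPM and was 7.004-fold higher [6.38–7.70]. At 4000 UMIs it was found in 16.1%, 70.2% and 70.8% of members and in 9.47%, 41.9% and 43.7% of other cells under the erythroid limit, beside 3.01%, 11.1% and 6.098% of cells rich in erythroid genes. Meg3 had 22.8, 108 and 88.97 CPM and was 4.74-fold higher [4.13–5.46], with log2 ratios from 1.55 to 3.14 over 14 alternative settings, and the leukocyte gene Lst1 had 40.6, 175 and 249 CPM and was 4.30-fold higher [3.88–4.79]. The metallothionein genes Mt1 and Mt2 had 42.8, 139.5 and 187 and 10.8, 58.7 and 93.9 CPM. Pde3b, Gfod1 and Hist3h2ba had 30.05, 92.1 and 85.1, 13.7, 49.4 and 35.8 and 11.1, 46.95 and 38.5 CPM. Tpm3-rs7 had the highest ratio, with 7.43, 90.9 and 85.1 CPM, but it is a copy of Tpm3 and its reads are uncertain.

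Pf4, the platelet factor gene, had 82.5, 360.5 and 285 CPM and was 4.37-fold higher [4.06–4.71] in MLL-ENL by summed UMIs. The share of members with a Pf4 UMI at 4000 UMIs was 6.16% [4.51–8.18], 6.60% [4.85–8.73] and 7.38% [5.68–9.40], so that the libraries overlapped, and in cells rich in erythroid genes it was 0%, 1.58% and 1.22%. In members chosen after thinning, the log2 ratio was −1.29 in place of 2.11. Members with a Pf4 UMI held means of 6, 16.1 and 11.4 megakaryocyte UMIs at that depth, with medians of 2.5, 4 and 5 in 44, 45 and 60 cells. A few cells thus carried the summed level, and a difference in the share of such cells was not detectable.

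Of 22 measured stem-cell genes outside the rule, 3 were called higher and 3 lower, near the shares over all genes of 8.88% and 13.7%. Their median log2 ratio was 0.06. Besides Mecom, Meis1 and the RNA-binding gene Msi2 were higher, the last with 188, 357 and 354 CPM and 1.90-fold higher [1.79–2.01]. Ifitm1, an interferon-induced membrane protein gene, had 852, 455 and 346 CPM and was 1.87-fold lower [1.80–1.95], Cd27 had 129, 72.3 and 65.4 CPM (log2 ratio −0.82) and Socs2 had 27.9, 13.1 and 10.5 CPM and was 2.12-fold lower [1.69–2.69]. In members with at least 3 markers the log2 ratio of Ifitm1 was −0.42, which ends its call.

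Fetal genes and lymphoid-priming genes were partly higher. Lin28b, an RNA-binding gene of fetal blood, had 20.1, 60.5 and 91.3 CPM and was 3.01-fold higher [2.57–3.53]. Hmga2 had 241, 562 and 559.8 CPM and was 2.33-fold higher [2.22–2.45], and Igf2bp2 had 46.1, 95.5 and 88.2 CPM and was 2.07-fold higher [1.85–2.32]. These were the 3 of 8 measured fetal-neonatal genes called higher, and 0 were lower, beside 8.88% and 13.7% of all genes. Of 13 measured lymphoid-priming genes 6 were higher and 1 lower (median 0.52), among them Mef2c and Runx2, which the list of fusion targets also holds, Tcf4 with 139, 234 and 233 CPM, Cd52 with 65.9, 111 and 108 and Ikzf1 with 106, 166 and 158. The recombination genes Rag1 and Rag2 had at most 2.28 CPM, and Dntt at most 0.167.

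Granulocyte-monocyte genes were lower in MLL-ENL members. Of 14 measured, 7 were called lower and 0 higher, beside 13.7% and 8.88% of all genes, with a median log2 ratio of −0.65. In other cells under the erythroid limit 15 of 17 measured genes of this list were lower, with a median of −1.09. Ms4a3, expressed in committed granulocyte-monocyte progenitors, had 44.7 [41.03–48.7], 5.55 [3.98–7.53] and 7.45 [5.71–9.56] CPM and was 8.06-fold lower [5.87–11.4] in MLL-ENL. The neutrophil elastase gene Elane had 97.5, 26.4 and 38.7 CPM and was 3.69-fold lower [3.17–4.32], and Irf8, a factor of monocyte and dendritic lines, had 46.6, 11.2 and 10.7 CPM and was 4.15-fold lower [3.29–5.29]. The protease genes Ctsg and Prtn3 had 395, 164 and 143 and 1054, 514 and 457 CPM. Mpo had 758, 542 and 501 CPM, with a log2 ratio of −0.48 that was not called. Members with 2 markers, whose part in the total differed between libraries, had 5729, 3108 and 2514 CPM over the list, and those with 4 or more had 2628, 1607 and 1219. Control was the highest at both numbers of markers.

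At 4000 UMIs, Ms4a3 was found in 3.92%, 1.47% and 1.48% of members and Irf8 in 9.52%, 4.11% and 5.41%, while cells rich in erythroid genes had at most 0.301% for either. In members chosen after thinning, the log2 ratio of Ms4a3 was −0.42 in place of −2.80 and that of Irf8 was −0.23 in place of −1.96. Both had few UMIs left there. Elane kept a log2 ratio of −2.16. The antigen-presentation gene Cd74 had 31.5, 6.22 and 4.33 CPM and was 5.06-fold lower [3.72–7.02], yet its log2 ratio was 1.10 in members with exactly 2 markers.

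Cd48 RNA was lower as well, with 189 [182–197], 56.02 [50.8–61.7] and 48.8 [44.2–53.8] CPM, or 3.38-fold lower [3.04–3.76] in MLL-ENL. At 4000 UMIs it was found in 43.8%, 16.1% and 14.9% of members. The shares in cells rich in erythroid genes were 21.99%, 8.95% and 14.6%, the last from 12 of 82 cells. In the Skida1-deleted library the shares of members and of these cells were thus close. The CD48 tag did not show this drop to the same size: its centred log ratio had medians of 3.76, 3.68 and 3.85. In members above the CD48 tag median Cd48 had 244, 76.9 and 62.3 CPM, and below it 121, 22.3 and 30.4 CPM.

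Cell cycle genes were lower in MLL-ENL members than in Control members. The 37 G2M genes summed to 52.997 UMIs per 10000 [52.6–53.4] for Control, 26.9 [26.5–27.3] for MLL-ENL and 30.7 [30.3–31.0] for Skida1-deleted. The 34 S phase genes summed to 37.8 [37.5–38.2], 28.5 [28.2–28.9] and 29.9 [29.5–30.2]. Of the G2M genes 33 of 37 measured were called lower in MLL-ENL and 0 higher, and of the S phase genes 13 of 34 were lower and 0 higher. The shares over all genes were 13.7% lower and 8.88% higher. Cenpe and Hmmr, genes of the mitotic spindle, had 144, 41.5 and 52.4 and 109.7, 32.7 and 37.03 CPM, and the replication gene Rrm2 had 50.7, 22.9 and 24.6.

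Fewer members held many G2M transcripts in MLL-ENL than in Control. At 4000 UMIs, 35.3% [31.8–38.9] of Control members had at least 20 G2M UMIs, against 12.9% [10.5–15.7] of MLL-ENL members and 18.2% [15.6–21.03] of Skida1-deleted members. Other cells under the erythroid limit had 33.6%, 17.5% and 18.3%. The medians of members were 7.5, 4 and 4 UMIs. The part of cell cycle in the other differences was not tested.

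Genes called lower were also found in lists outside the cell cycle, beside 13.7% of all genes called lower and 8.88% higher. Of 9 measured cholesterol synthesis genes 7 were lower (median −0.72), with 78.4, 42.5 and 51.2 CPM of Fdps and 42.8, 21.5 and 22.8 of Pmvk. Of 23 measured genes of MYC response and ribosome biogenesis 7 were lower and 0 higher (median −0.31), with 162, 60.5 and 91.3 CPM of the spermidine synthase gene Srm. Of 19 interferon genes 6 were lower and 0 higher (median −0.44). Isg15, an interferon-induced ubiquitin-like modifier, had 159 [152–166], 29.5 [25.7–33.7] and 42.4 [38.1–47.1] CPM and was 5.38-fold lower [4.67–6.22], and it was found in 40.8%, 10.9% and 16.4% of members at 4000 UMIs and in 3.31%, 2.11% and 1.22% of cells rich in erythroid genes.

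Of 9 measured Polycomb PRC2 genes 2 were higher and 1 lower, beside 8.88% and 13.7% of all genes. Ezh2, the catalytic subunit, had 198, 95.3 and 122 CPM and was 2.08-fold lower [1.91–2.26], while its partner Jarid2 had 46.2, 81.9 and 92.1 CPM and was 1.77-fold higher [1.57–1.99] and Lcor had 26.5, 45.1 and 46.8 CPM. Of 13 measured PRC1 genes 0 were called in either direction. Of 13 measured genes of the MLL and elongation complexes 2 were higher, Ell2 with 7.09, 21.9 and 22.96 CPM and Aff4 with 45.1, 82.5 and 84.04.

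**Figure D4:**
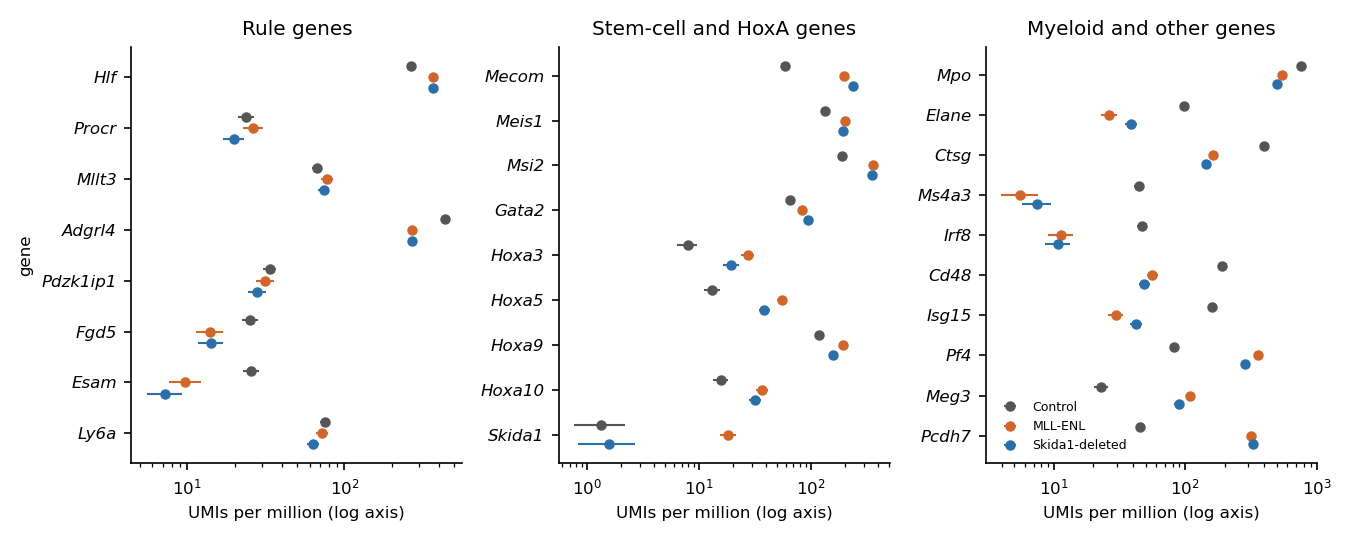
CPM on a log axis of the rule genes, of stem-cell and HoxA genes and of myeloid and other genes in Hlf-positive cells of the 3 libraries. Points are levels with 95% Poisson intervals; Mecom, the HoxA genes, Meg3 and Pcdh7 are lowest in Control, and Elane, Ctsg, Ms4a3, Irf8, Cd48 and Isg15 are highest there.

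The Skida1-deleted library was then compared with MLL-ENL, the question being how cells with the fusion differ without Skida1. These 2 libraries also differ in sex-linked transcripts and in animals, which cannot be told apart from the deletion. Both comparisons share the MLL-ENL library, so they are set side by side only as values. Of 6169 genes, 101 were at least 1.5-fold higher in the Skida1-deleted library (1.64%) and 60 lower (0.973%). With median-of-ratios scaling the counts were 131 and 49, and without X and Y genes they were 94 and 56. In other cells under the erythroid limit 1.2% of 5679 genes were higher and 0.704% lower. The median log2 ratio over all genes was −0.03. Far fewer genes were called than in the comparison of MLL-ENL with Control.

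The genes with high ratios in MLL-ENL were above the Control level in the Skida1-deleted library as well. Mecom was 1.22-fold higher [1.14–1.30] than in MLL-ENL, and Pcdh7 had a fold of 1.03 [0.974–1.09]. Of 5 measured HoxA genes 0 were called, beside 1.64% of all genes higher and 0.973% lower. Their median log2 ratio was −0.29. Hoxa5 was 1.45-fold lower [1.25–1.68] than in MLL-ENL, a log2 ratio of −0.52, and Hoxa9 was 1.23-fold lower [1.14–1.32]. In members with at least 3 markers the log2 ratios of Hoxa5 and Hoxa3 were −1.03 and −0.88, past the 1.5-fold limit. The intervals of Hoxa5, Hoxa3 and Hoxa9 excluded equal levels for counting error, but with 1 library per group the spread between animals is unknown.

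The list counts below stand beside 1.64% of all genes called higher. Eya1, a phosphatase and transcription cofactor gene known as an MLL-fusion target, was the 1 gene of 23 measured targets called higher. It had 17.9 [15.6–20.5], 23.4 [20.1–27.2] and 43.8 [39.4–48.5] CPM and was 1.87-fold higher [1.56–2.25] in the Skida1-deleted library, with a log2 ratio between 0.56 and 0.96 over 14 alternative settings. Other cells under the erythroid limit had a log2 ratio of 0.98. Lin28b had 20.1, 60.5 and 91.3 CPM and was 1.51-fold higher [1.34–1.70] than in MLL-ENL, the 1 of 8 measured fetal-neonatal genes called. Its log2 ratio of 0.59 lay at the limit and was 0.28 after thinning, which ends the call. Tnfaip2, a gene of tumor necrosis factor response, had 3.84, 16.5 and 35.1 CPM and was 2.13-fold higher [1.72–2.65], and Gpr65, an acid-sensing receptor gene, had 20.95, 29.6 and 63.96 CPM and was 2.16-fold higher [1.84–2.54]. Of these 4 genes, Lin28b was also called higher in MLL-ENL than in Control, whereas Eya1 and Gpr65 had log2 ratios of 0.37 and 0.48 there. Tnfaip2 was under 20 CPM in both Control and MLL-ENL members, so it was not counted in that comparison.

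The other genes with the highest ratios had no list of their own. Atp5k had 85.1, 179 and 343 CPM, Pet100 had 33.5, 77.9 and 142, Polr2l had 12.4, 27.7 and 51.5 and Smim27 had 13.02, 28.1 and 57.7. Hist1h4d and Hist1h4h had 197, 219 and 430.2 and 29.5, 47.8 and 103 CPM, and Hist1h4c had 11.3, 15.02 and 30.7, but histone H4 genes are near-identical copies whose reads are uncertain. Eif3j1 had 67.3, 84.97 and 154 CPM, and it too has a close copy. Rab26os, a noncoding gene, had 7.18, 17.3 and 32.2 CPM. In other cells under the erythroid limit the log2 ratios of these 9 genes lay between 0.81 and 1.09, so the differences were not limited to members.

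MHC class I genes were lower in the Skida1-deleted library. Of 11 measured genes 3 were called lower and 0 higher, beside 0.973% and 1.64% of all genes. Their median log2 ratio was −0.53 against −0.03 over all genes. H2-T23, a nonclassical class I gene, had 197 [189–205], 158 [149–167] and 60.2 [55.1–65.7] CPM and was 2.62-fold lower [2.36–2.91] than in MLL-ENL. H2-T22 had 53.3, 38.6 and 23.9 CPM and was 1.61-fold lower [1.34–1.94], a call that ended after thinning with a log2 ratio of −0.50, and Tap2, a peptide transporter gene, had 59.2, 47.9 and 31.3. The classical genes H2-D1 and H2-K1 had 566, 359 and 239 and 534, 366 and 278 CPM, with log2 ratios of −0.58 and −0.40, and B2m had 782, 951 and 635 CPM. Class I genes are a family of similar sequences, so reads may be split between them. The median lay between −0.67 and −0.42 in 14 alternative settings, and it was −0.49 in other cells under the erythroid limit.

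Of 18 measured interferon genes 3 were lower and 0 higher, beside 0.973% and 1.64% of all genes. Irgm1 and Ifit1 had 57.4, 41.9 and 20.6 and 59.2, 32.5 and 16.8 CPM, whereas Isg15 had a log2 ratio of 0.51 in the other direction. Apart from Xist, the lowest ratio among the counted genes was that of Rpa3, a subunit gene of the single-strand DNA binding complex, with 86.6, 58.7 and 19.5 CPM and 3.02-fold lower [2.51–3.63]. After thinning its log2 ratio was −0.81 in place of −1.54. Il12a, Sdhd, Mrps28, Snhg6, Mgst1, Usf1 and Tmem128 were the other autosomal genes named as lower, with log2 ratios between −1.02 and −0.72. Eif2s3x, on the X chromosome, had 81.7, 89.98 and 52.4 CPM in libraries that differ in Xist.

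No S phase or G2M gene was called, beside 1.64% of all genes higher and 0.973% lower. The summed G2M level was 1.14 times that of MLL-ENL. In members with 4 or more markers, 66 for Skida1-deleted and 107 for MLL-ENL, the order turned. Their G2M sums were 1806 and 2469.99 CPM and their S phase sums 2111 and 2400.4 CPM. With 3 markers it did not turn, with G2M sums of 3417 and 2438 CPM. After thinning, the G2M sums at 4 or more markers were 769 [610–957] and 957 [802–1134] CPM, with overlapping intervals. Of 23 measured genes of MYC response and ribosome biogenesis 2 were higher and 0 lower, Srm being 1.51-fold higher [1.34–1.70] than in MLL-ENL, with a log2 ratio of 0.59 that was 0.43 without doublets. Srm and Lin28b happened to have the same sums of UMIs, 447 for MLL-ENL and 759 for Skida1-deleted, with different sums of 1936 and 241 in Control. Of 9 granulocyte-monocyte genes, 14 PRC1 genes, 9 PRC2 genes and 12 genes of the MLL and elongation complexes, 0 were called in either direction. In lists of this size a count of 0 is near the shares of 1.64% and 0.973% over all genes. The list medians of both comparisons are drawn beside those of the other cells under the erythroid limit.

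**Figure D5:**
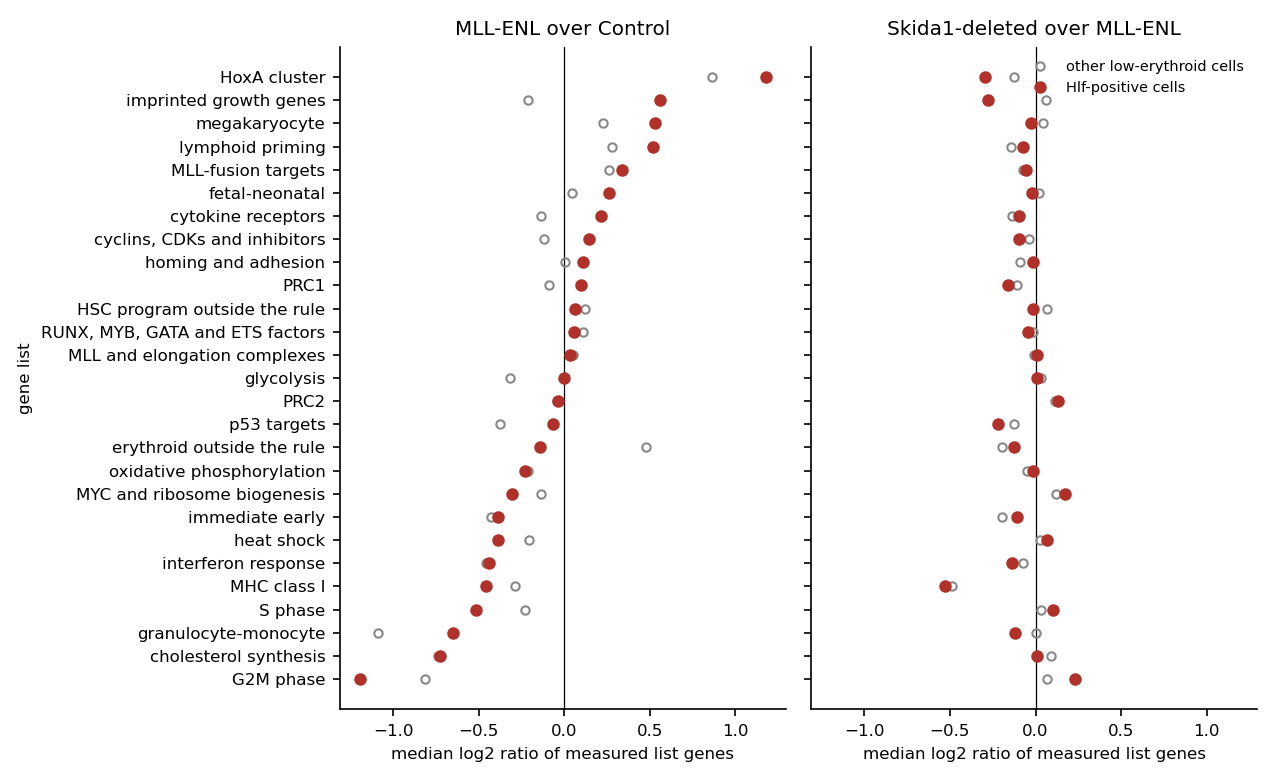
Median log2 ratio of the measured genes of each list with at least 5 measured genes, for MLL-ENL over Control (left) and Skida1-deleted over MLL-ENL (right), in Hlf-positive cells (filled) and other cells under the erythroid limit (open). On the left HoxA genes stand highest, at 1.18, and G2M genes lowest, at −1.19; on the right MHC class I genes stand lowest, at −0.53.

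Several of these differences were shared with the rest of the low-erythroid cells. For MLL-ENL over Control, the log2 ratios in those cells were 2.82 for Pcdh7, 1.77 for Hoxa5, −2.11 for Isg15 and −2.28 for Ms4a3, beside 2.78, 2.001, −2.39 and −2.80 in members. Mecom had 3.22 in those cells beside 1.73 in members, from levels of 3.83, 43.9 and 73.2 CPM. List medians there were −1.09 for granulocyte-monocyte, −0.74 for cholesterol synthesis and −0.46 for interferon genes, beside −0.65, −0.72 and −0.44 in members. For HoxA and G2M genes they were 0.87 and −0.81, beside 1.18 and −1.19. Whether members and other cells differ in these ratios was not tested, as there is 1 library per group.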

How the data were processed

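RNA and 10 antibody tags were measured by CITE-seq in 3 libraries, 1 per group. The deposited matrices hold raw UMI counts per gene or tag and cell barcode. They were made with Cell Ranger 6.1.2 per the file headers, while the submitters' processing notes name 6.0.1 and the build mm10. No label says how the authors treated doublets.

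Cells were kept and Hlf-positive cells chosen by the stated limits in Python 3.11.15 (NumPy 2.4.6, SciPy 1.17.1, pandas 2.3.3). The members and gene lists were chosen with earlier results of these data known. UMIs were summed over members per library and scaled to CPM, and log2 ratios used CPM plus 1. Genes with at least 20 CPM in either library and 30 UMIs over both were counted, without the 13 rule genes. Named genes were the 12 highest and 12 lowest ratios per comparison at 30 CPM and 50 UMIs, the 15 that most set members apart, and list members, of which some are not reported here. CPM carry exact Poisson intervals, shares Clopper-Pearson intervals and folds exact intervals of the split of their UMIs, each at 95%. Scrublet scores (scanpy 1.11.5) served only as an alternative that removed 0.8% of cells per 1000 cells. Total gene UMIs per library were 180656900, 198773992 and 207395090. Gene positions come from the RefSeq table of GRCm38.p6. The calculations were tested on simulated data. Alternatives changed depth, doublets, limits of the rule, scaling and filters.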

Additional observations from a re-analysis of the deposited data

How the results depend on the processing

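Each group has 1 library, so depth and the rule set most limits. Shares for Control, MLL-ENL and Skida1-deleted were 5.06%, 3.10% and 3.82% after thinning, 9.75%, 4.85% and 6.55% with at least 2 Hlf UMIs, 7.67%, 2.34% and 2.66% with at least 3 markers, and 15.7%, 7.29% and 10.3% without the erythroid limit. With cells of at least 5000 UMIs the MLL-ENL share was 7.27%. The ratio of MLL-ENL to Control shares (0.495) was 0.612 thinned, 0.305 with 3 markers and 0.576 at 5000 UMIs, and that of Skida1-deleted to MLL-ENL (1.36) was 1.14 with 3 markers and 1.11 at 5000 UMIs.

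For MLL-ENL over Control, genes called higher numbered 1055 thinned, 879 with 3 markers and 1021 at a minimum of 5 CPM, where 1415 were lower. For Skida1-deleted over MLL-ENL, higher calls were 339 thinned, 234 with 3 markers and 189 at 5 CPM. Lower calls were 384, 235 and 210 there, 115 without the erythroid limit and 105 among members with at most 50 cycle UMIs per 10000. Of 4200 log2 ratios of single genes under alternatives, 3487 stayed within the counting interval of the reported ratio, 707 moved beyond it and 6 called ratios changed sign. Those for MLL-ENL over Control were Cd74 with exactly 2 markers (1.10), Hspa5 and Pf4 thinned (0.30 and −1.29) and Plk1 at low cycle UMIs (0.25), and for Skida1-deleted over MLL-ENL they were Hsph1 and Mt2 thinned (−0.18 and −0.35).

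The S phase ratio of MLL-ENL to Control (0.754) was 0.511 thinned, 0.719 with 2 Hlf UMIs, 0.631 with 3 markers, 0.770 at 5000 UMIs, 0.782 without the erythroid limit, 0.721 in the top 25% for Sca-1 and 0.852 as a share of cells with 3 list UMIs. The G2M ratio (0.508) was 0.381, 0.459, 0.448, 0.518, 0.575, 0.466 and 0.908 in the same settings, and 0.551 with exactly 2 markers. For Skida1-deleted over MLL-ENL the S phase ratio (1.05) was 1.16 thinned, 1.02 without doublets, 1.16 with 3 markers, 1.11 without the erythroid limit and 0.9997 with exactly 2 markers. The G2M ratio (1.14) was 1.22 thinned, 1.27 with 2 Hlf UMIs, 1.26 with 3 markers, 1.22 in the top 25% for Sca-1, 1.09 with exactly 2 markers and 1.0003 as a share of cells. The lowest Sca-1 difference of the 3 libraries (1.81) was 2.03 thinned, 1.88 with 2 Hlf UMIs, 1.91 with 3 markers, 1.71 without the erythroid limit and 1.48 against low-erythroid cells, where the CD150 difference in Control was 0.20. The cause of these shifts was not tested.

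The low cycle limit of 50, the Sca-1 limit, exactly 2 markers and the removal of X and Y genes were chosen after seeing the data. A stricter cycle limit, planned earlier, left 0, 0 and 8 members and was not run. No paired analysis was possible because each group has 1 library.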
